A study of Mus musculus with 12 samples.

Results

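The genes described here are 10 genes of osteoclasts, the multinucleated cells that resorb bone: Ctsk, Acp5, Atp6v0d2, Dcstamp, Ocstamp, Nfatc1, Oscar, Tnfrsf11a, Clcn7 and Tcirg1. They were taken by name from a deposited expression table of 21853 mouse genes, all 10 were found in it, and 6 passed the filter on low values used for testing. The members are known osteoclast genes chosen by name, but the list was led by Ctsk, selected on its higher FPKM in TBI than in control marrow, so for Ctsk that comparison is a description without a test. The study sequenced messenger RNA from whole bone marrow cells of B6 mice in 4 groups of 3 libraries, 12 in all. The control mice were not irradiated. The TBI mice received 5 Gy of total body irradiation with gamma rays at 0.66 Gy per min and 100 µL of olive oil by gavage. The TBI+DEIX mice received the same irradiation and DEIX, named in the series title as deinoxanthin, a bacterial carotenoid, at 25 mg/kg daily by mouth. The DEIX mice received 25 mg/kg DEIX daily without irradiation. Treatment ran for 14 days and marrow was taken at day 14. A vehicle is stated for the TBI mice only, so dosing itself cannot be told apart from the other differences from control. The labels do not say whether the 3 libraries of a group came from separate mice, so p-values measure only the spread between these libraries.

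An osteoclast forms when precursors of the monocyte and macrophage lineage receive M-CSF, encoded by Csf1, and RANK ligand, encoded by Tnfsf11. RANK, encoded by Tnfrsf11a, signals to NFATc1, the master transcription factor of the lineage, with help from receptors such as OSCAR that act through ITAM adaptors. Precursors then fuse, which needs DC-STAMP and OC-STAMP, and the mature cell acidifies a sealed pit on bone with a vacuolar proton pump (V-ATPase) and the ClC-7 chloride transporter, and digests the collagen there with cathepsin K. Some of these genes are used almost only by osteoclasts, while others, such as Nfatc1, Tcirg1, Clcn7 and Acp5, are also used by other blood cells. In whole marrow, more cells of a type and more RNA per cell cannot be told apart.

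Values are FPKM, in which sequenced fragments are divided by transcript length and by library depth, so that levels can be compared between genes. By mean FPKM over the 12 libraries, Tcirg1 was the highest of the 10 genes at 66.6, followed by Nfatc1 at 28.2, Acp5 at 23.9, Clcn7 at 12.4 and Ctsk at 4.12. Atp6v0d2 at 0.718 passed the filter, which asked for at least 1 FPKM in at least 3 libraries, with 5 libraries at that level. Tnfrsf11a at 0.654 did not pass and reached 0.855 FPKM at most. Ocstamp at 0.179, Dcstamp at 0.165 and Oscar at 0.122 were far below the filter. The table holds no counts. From the steps between low values of genes with 1 transcript, the libraries held roughly 21500000 (TBI+DEIX replicate 1) to 54000000 (TBI replicate 2) mapped fragments, and at that depth the FPKM values of a library stand for about 35 to 583 fragments of Ctsk but only 1 to 21 of Oscar, 3 to 25 of Dcstamp and 2 to 41 of Ocstamp. Replicates were least alike in TBI+DEIX, where the root mean square SD of log2(FPKM + 1) over tested genes was 0.418, against 0.140 in control, 0.225 in TBI and 0.236 in DEIX. TBI+DEIX replicate 1, the shallowest library, stood apart from replicates 2 and 3 in several genes below.

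Ctsk and Oscar were the members of the list with all 6 irradiated libraries above all 6 unirradiated ones, and the 250 bases before their RefSeq start sites on GRCm38.p6 are shown here beside those of Clcn7, whose irradiated and unirradiated libraries overlapped. RefSeq windows of 300 bases, from 250 before to 50 after the start, were at hand for 6 of the 10 genes. Each sequence reads 5′ to 3′ on the gene's strand and ends at the base before the start. Capitals mark GGAAA, the core of NFAT sites, GAGGAA, a PU.1 site, and the E-boxes CATGTG and CACGTG bound by MITF and its relatives, on either strand. The Ctsk window is chr3:95498960-95499209 (plus strand), that of Oscar chr7:3616158-3616407 (minus strand) and that of Clcn7, its first of 2 RefSeq starts, chr17:25133141-25133390 (plus strand).
Ctsk: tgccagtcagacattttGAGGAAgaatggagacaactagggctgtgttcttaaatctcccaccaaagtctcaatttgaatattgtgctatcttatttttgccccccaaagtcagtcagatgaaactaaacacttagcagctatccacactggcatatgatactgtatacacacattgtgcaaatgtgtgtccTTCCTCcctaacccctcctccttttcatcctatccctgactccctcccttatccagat
Oscar: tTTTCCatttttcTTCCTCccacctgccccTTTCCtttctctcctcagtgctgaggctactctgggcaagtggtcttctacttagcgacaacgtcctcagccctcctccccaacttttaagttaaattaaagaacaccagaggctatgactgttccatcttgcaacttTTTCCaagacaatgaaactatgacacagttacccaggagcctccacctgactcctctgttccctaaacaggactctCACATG
Clcn7: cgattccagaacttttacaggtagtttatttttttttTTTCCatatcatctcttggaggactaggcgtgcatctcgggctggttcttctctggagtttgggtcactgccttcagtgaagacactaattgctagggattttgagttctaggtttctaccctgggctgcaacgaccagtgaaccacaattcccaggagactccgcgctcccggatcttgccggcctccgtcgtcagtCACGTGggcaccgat

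In the sequence shown for Ctsk, PU.1 letters began 233 and 58 bases before the start, and no E-box searched was present. The sequence of Oscar held NFAT core letters beginning 249, 220 and 82 bases before the start, PU.1 letters 237 bases before it and the E-box CACATG, the reverse complement of CATGTG, directly next to the start. In that of Clcn7, an NFAT core began 213 bases and a CACGTG E-box 15 bases before the start. The 50 bases from the start on are not shown, and in them NFAT core letters began at the start base of Ctsk and 19 bases after that of Oscar, PU.1 letters 20 bases after that of Oscar, and a CACGTG E-box 7 bases after that of Clcn7. Of 32851 windows of 300 bases in the RefSeq table, counted over their whole length, 61.3% held GGAAA, 28.3% GAGGAA, 14.2% CATGTG and 7.15% CACGTG, and the AP-1 motif TGANTCA, in 7.81% of windows, was in none of the 11 windows of these genes. GGAAA and GAGGAA can overlap. These matches describe letters and were not tested as sites.

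Ctsk encodes cathepsin K, the protease with which osteoclasts digest bone collagen. Its gene lies on GRCm38 chromosome 3 from 95499256 to 95509362 and has 1 annotated transcript. Control libraries held 1.18, 0.902 and 1.94 FPKM of Ctsk and DEIX libraries 1.39, 2.31 and 0.609 FPKM. TBI libraries held 6.52, 6.22 and 9.22 FPKM and TBI+DEIX libraries 4.69, 9.09 and 5.40 FPKM. Every irradiated library was thus above every unirradiated one, with 4.69 FPKM as the lowest irradiated and 2.31 FPKM as the highest unirradiated value. The means ± SD (n = 3 each) were 7.32 ± 1.65 FPKM in TBI and 6.39 ± 2.36 FPKM in TBI+DEIX, against 1.44 ± 0.852 FPKM in DEIX and 1.34 ± 0.538 FPKM in control. In order of level, TBI and TBI+DEIX were neighbours that overlapped, as were DEIX and control, and the gap lay between the pairs.

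Changes below are differences of mean log2(FPKM + 1), on which the change of a gene at low FPKM looks smaller than it is, with limma's standard error and a p adjusted by Benjamini-Hochberg over the 10994 genes tested. TBI exceeded control by 1.84 for Ctsk, the value that was known when the list was made. The comparison of TBI+DEIX with DEIX shares no library with that one. In it, Ctsk rose by 1.62 (SE 0.29, adjusted p = 0.0186), higher in 3 of 3 TBI+DEIX libraries than in any DEIX library, as were 8.72% of tested genes. Against control, Ctsk in TBI+DEIX rose by 1.64 (SE 0.29, adjusted p = 0.00223), a comparison that shares its control libraries with the known one. The change from DEIX did not pass the threshold when only those 2 groups were fitted (adjusted p = 0.188, in a fit that called none of the genes tested), without DEIX replicate 1 (0.0517) or without DEIX replicate 3 (0.0705). It passed in 14 of 17 alternative settings.

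No difference in Ctsk with DEIX was called. TBI+DEIX minus TBI was -0.20 on the log2 scale (95% confidence interval -0.83 to 0.43, adjusted p = 0.703), and DEIX minus control was 0.02 (-0.61 to 0.65, adjusted p = 0.978). The interaction, the effect of DEIX in irradiated mice minus that in unirradiated mice, was -0.22 (-1.11 to 0.68, adjusted p = 0.999). These intervals leave room for a change by DEIX in either direction. All of these comparisons use TBI or control libraries on which Ctsk was selected, and the interaction holds TBI minus control itself. They are therefore given as a description.

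**Figure D1:**
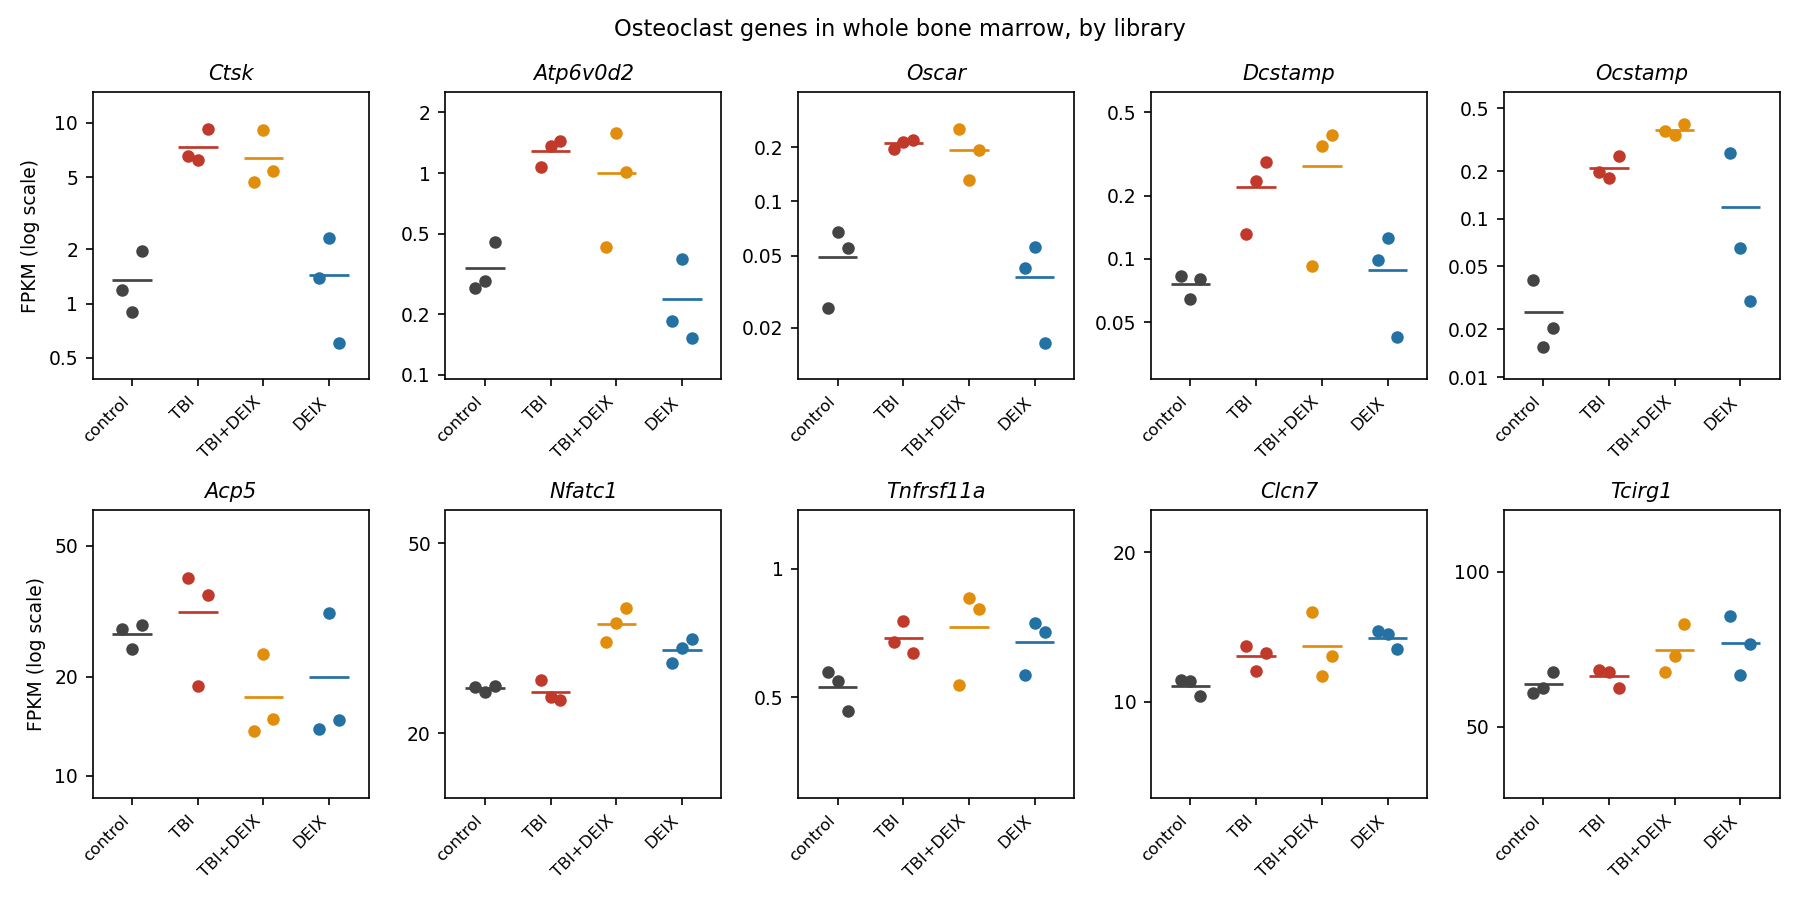
FPKM of each of the 10 osteoclast genes (log axis, scaled per gene) in the 12 libraries by group, with each point a library and each bar the mean of 3. Ctsk and Oscar have every TBI and TBI+DEIX point above every control and DEIX point, while Acp5, Clcn7 and Tcirg1 overlap.

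Oscar, Ocstamp, Dcstamp and Atp6v0d2, all at lower levels than Ctsk, had higher group means in TBI and TBI+DEIX than in control and DEIX, and of these 4 only Oscar had no overlap between irradiated and unirradiated libraries. Oscar encodes a collagen receptor that co-stimulates osteoclast differentiation, and lies on chromosome 7 from 3609813 to 3616157. It measured 0.0258, 0.0677 and 0.055 FPKM in control, 0.196, 0.213 and 0.220 in TBI, 0.253, 0.131 and 0.193 in TBI+DEIX, and 0.0427, 0.0556 and 0.0165 in DEIX. The lowest irradiated library, at 0.131 FPKM, was above the highest unirradiated one, at 0.0677. Of all tested genes, 0.773% had all irradiated libraries above all unirradiated ones, and so did 1.62% of the 2956 genes with a mean of 0.05 to 1 FPKM. Leaving out TBI+DEIX replicate 1 brought the members with this layout from 2 to 4, adding Atp6v0d2 and Dcstamp, while the share of all tested genes rose to 1.22% and that of the low genes to 2.67%. Leaving out DEIX replicate 1 brought the members to 3, adding Ocstamp, and those shares to 1.56% and 2.23%. Ctsk, in each of these counts, was selected on TBI above control, which is part of this layout. Atp6v0d2 is among the tested genes through irradiated libraries only. The counts are thus a description and support nothing about the list.

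Since Oscar is under the filter, it was fitted in a setting added after seeing the data, on log2(FPKM + 0.1) over 17304 genes. Oscar rose by 1.06 (SE 0.17, adjusted p = 0.0133) in TBI against control, where 0.751% of genes were called higher, and by 1.07 (SE 0.17, adjusted p = 0.0190) in TBI+DEIX against DEIX, where 0.757% were called higher. Leaving out 1 of the 6 libraries at a time, the first call was lost without control replicate 1 (adjusted p = 0.0581) or control replicate 3 (0.0520) and the second without DEIX replicate 3 (0.0770). Against control, the change of Oscar in TBI+DEIX was 0.96 (adjusted p = 0.00439), called in 6 of 6 such fits. Oscar did not differ detectably between TBI+DEIX and TBI (-0.10, 95% confidence interval -0.49 to 0.28). With 1 to 21 fragments a library, counting error alone is large for this gene.

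Ocstamp encodes OC-STAMP, one of the membrane proteins needed for precursor fusion, on chromosome 2 from 165393760 to 165400405. It measured 0.0412, 0.0155 and 0.0206 FPKM in control and 0.197, 0.179 and 0.248 in TBI. In TBI+DEIX it measured 0.358, 0.337 and 0.394 FPKM, above all TBI libraries as for 8.46% of genes with a mean of 0.05 to 1 FPKM, and in DEIX 0.260, 0.0656 and 0.0303. DEIX replicate 1 was thus as high as the TBI libraries, while the other DEIX libraries were near control. On log2(FPKM + 0.1), Ocstamp rose by 1.88 (SE 0.30, adjusted p = 0.00262) in TBI+DEIX against control, a contrast in which 11.3% of all genes were called higher in that setting. Its change was 1.29 in TBI against control (adjusted p = 0.0530), 1.22 in TBI+DEIX against DEIX (0.0733) and 0.59 in TBI+DEIX against TBI (0.298), none of which passed. Without DEIX replicate 1, Ocstamp in TBI+DEIX exceeded DEIX by 1.65 (adjusted p = 0.00745), and on log2(FPKM + 1) with no filter and all libraries the difference from DEIX passed (0.29, adjusted p = 0.0473).

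Dcstamp encodes DC-STAMP, the better known of the fusion proteins, on chromosome 15 from 39745930 to 39760938. It measured 0.0826, 0.0641 and 0.0802 FPKM in control, 0.132, 0.235 and 0.289 in TBI, 0.0921, 0.345 and 0.389 in TBI+DEIX, and 0.0987, 0.125 and 0.0426 in DEIX. TBI lay above control in all libraries, as for 10.9% of genes with a mean of 0.05 to 1 FPKM, but TBI+DEIX replicate 1 fell among the DEIX libraries. No change of Dcstamp passed in the added setting, at 0.83 in TBI against control (adjusted p = 0.257) and 0.90 in TBI+DEIX against DEIX (0.229). Without TBI+DEIX replicate 1, the second was 1.33 (adjusted p = 0.0230). The change of Dcstamp from control to TBI+DEIX was 0.98 (adjusted p = 0.0660) with all libraries and 1.41 (0.00374) without that one.

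Atp6v0d2 encodes the d2 subunit of the V-ATPase, an isoform enriched in osteoclasts that is also needed for fusion, on chromosome 4 from 19876841 to 19922605. It measured 0.270, 0.293 and 0.458 FPKM in control and 1.07, 1.37 and 1.44 in TBI. TBI+DEIX libraries held 0.428, 1.58 and 1.01 FPKM and DEIX libraries 0.184, 0.373 and 0.152. The 1 irradiated library that reached down to the control range was again TBI+DEIX replicate 1. Atp6v0d2 passed the filter only through 5 irradiated libraries, so its calls, 0.77 in TBI against control (SE 0.19, adjusted p = 0.0448) and 0.54 in TBI+DEIX against control (adjusted p = 0.0483), are given as values and support nothing. Without TBI+DEIX replicate 1 the second was 0.77 (adjusted p = 0.00237), and without replicate 2 it was 0.34 (0.147). The first was lost in 9 of 17 alternative settings and the second in 11 of 17.

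The irradiation difference was thus measured once without and once with DEIX. Mean FPKM over the 6 irradiated libraries divided by that over the 6 unirradiated ones was 4.94 for Ctsk, 4.58 for Oscar, 3.98 for Atp6v0d2, 3.95 for Ocstamp and 3.01 for Dcstamp. The same ratio was 1.18 for Tnfrsf11a, 1.06 for Nfatc1, 1.04 for Clcn7 and for Acp5, and 1.00 for Tcirg1. On log2(FPKM + 0.1), the difference with DEIX minus that without it was small beside its error for each of the 5 genes listed first. Examples are 0.01 for Oscar (95% confidence interval -0.53 to 0.55) and -0.07 for Ocstamp (-1.02 to 0.88). These 5 were set apart by their ratios in the same libraries. Ctsk was selected on TBI against control, and Atp6v0d2 passed the filter through irradiated libraries only. The values are thus a description and do not show that the differences were equal.

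**Figure D2:**
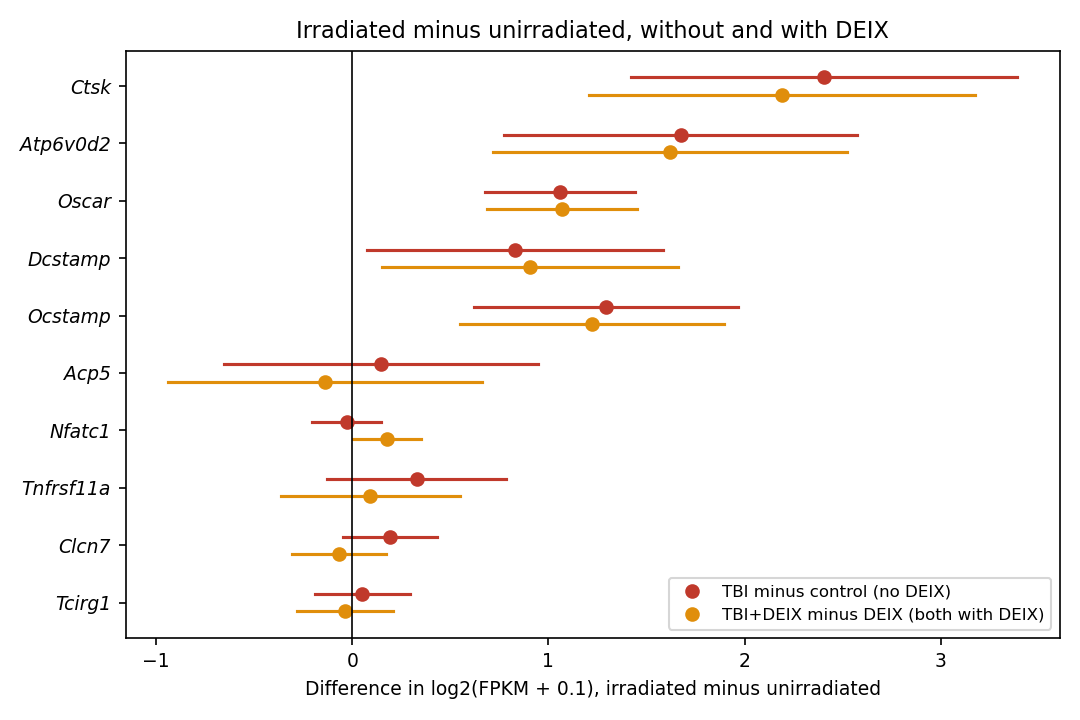
Differences in log2(FPKM + 0.1) between irradiated and unirradiated groups for each gene, without DEIX (TBI minus control) and with it (TBI+DEIX minus DEIX), with lines for limma's 95% confidence intervals from 3 libraries a group. TBI minus control of Ctsk, on which the list was selected, and the values of Atp6v0d2 are drawn as a description, and of the other members Oscar, Dcstamp and Ocstamp have both intervals above 0, with intervals not adjusted for the number of genes.

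Among the regulators, Nfatc1 and the RANK receptor gene were not called in TBI against control or in TBI+DEIX against DEIX. Nfatc1, on chromosome 18, measured 25.0, 24.4 and 25.1 FPKM in control, 25.8, 23.8 and 23.4 in TBI, 31.0, 34.0 and 36.6 in TBI+DEIX, and 28.1, 30.1 and 31.5 in DEIX. Control and TBI overlapped, and every library of either DEIX group was above every library of both, as for 3.46% of tested genes. Nfatc1 rose by 0.46 (SE 0.09, adjusted p = 0.0196) in TBI+DEIX against TBI, and by 0.43 (SE 0.09, adjusted p = 0.00462) in TBI+DEIX against control. DEIX minus control was 0.26 (SE 0.09, adjusted p = 0.0988) and TBI minus control -0.03 (95% confidence interval -0.22 to 0.16). TBI+DEIX minus DEIX was 0.17 by limma (-0.02 to 0.36, adjusted p = 0.373), which leaves room for a rise of Nfatc1.

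The change of Nfatc1 from TBI did not pass when values were rescaled to TPM, which sums to the same total in each library (0.33, adjusted p = 0.368, on a scale where the median of all genes moved to -0.12), nor in a fit of the 2 groups alone (adjusted p = 0.144) or without TBI replicate 2 (0.0518), TBI replicate 3 (0.0955) or TBI+DEIX replicate 3 (0.0689). Its change from control did not pass on TPM either (0.31, adjusted p = 0.258). Summed FPKM of 7 erythroid marker genes was 181 to 982 in TBI+DEIX and 901 to 4559 in DEIX. It was 2090 to 3478 in control and 1116 to 4816 in TBI. DEIX replicate 2, with a sum of 4559, held 30.1 FPKM of Nfatc1, above every control and TBI library. The part of erythroid cells in the Nfatc1 result was not tested.

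Tnfrsf11a, which encodes RANK, lies on chromosome 1 from 105780718 to 105847981. It measured 0.572, 0.546 and 0.464 FPKM in control and 0.672, 0.754 and 0.634 in TBI, where all 3 libraries were above control, as for 22.0% of tested genes and 10.9% of genes with a mean of 0.05 to 1 FPKM. In TBI+DEIX it measured 0.534, 0.855 and 0.805 and in DEIX 0.562, 0.745 and 0.709 FPKM, both overlapping control. In the added setting, the change of Tnfrsf11a was 0.33 in TBI against control (95% confidence interval -0.13 to 0.78, adjusted p = 0.484). That interval leaves room for a rise. No contrast of Tnfrsf11a passed, and the change was 0.39 in TBI+DEIX against control (adjusted p = 0.217). Without TBI+DEIX replicate 1, the latter was 0.57 (adjusted p = 0.0307).

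Genes that act on or around these members were taken from lists. Of 5 ligand, decoy and receptor genes, Csf1 and its receptor Csf1r were tested. Csf1r was called in no contrast, where 0.200% to 30.0% of all genes were. Summed FPKM of the 5 genes was 69.9 to 80.4 in control and 45.5 to 68.9 in TBI. It was 25.1 to 66.5 in TBI+DEIX and 88.1 to 146 in DEIX. Csf1 fell by 0.86 (SE 0.14, adjusted p = 0.00725) in TBI against control, and rose by 0.57 (SE 0.14, adjusted p = 0.0360) in TBI+DEIX against TBI. Csf1 libraries held 5.39, 5.82 and 5.98 FPKM in control, 2.29, 2.69 and 3.24 in TBI, 4.20, 5.54 and 3.94 in TBI+DEIX, and 4.71, 3.50 and 4.26 in DEIX, so that the 3 TBI libraries were the lowest of the 12, as for 0.919% of tested genes. The other 3 genes, Tnfsf11, Il34 and Tnfrsf11b, were under the filter and are described from the added setting. Tnfsf11, the ligand of RANK, measured 0.135 to 0.147 FPKM in control, 0.263 to 0.476 in TBI, 0.270 to 0.486 in TBI+DEIX and 0.0376 to 0.161 in DEIX, with all irradiated libraries above all unirradiated ones, as for 1.62% of genes with a mean of 0.05 to 1 FPKM.

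On log2(FPKM + 0.1), the change of Tnfsf11 was 0.90 in TBI against control (adjusted p = 0.112) and 1.31 in TBI+DEIX against DEIX (adjusted p = 0.0375, and of 6 fits that each left out a library, called in the 1 without TBI+DEIX replicate 2). The change from control to TBI+DEIX was 1.01 (adjusted p = 0.0233), called in 2 of 6, those without TBI+DEIX replicate 1 or 2. Il34 encodes a second ligand of the M-CSF receptor and was lowest in TBI+DEIX by group mean, with 0.0526 to 0.109 FPKM in control, 0.0670 to 0.170 in TBI, 0 to 0.0439 in TBI+DEIX and 0.0263 to 0.0378 in DEIX. It fell by 0.92 (adjusted p = 0.0369) in TBI+DEIX against TBI, where 1.39% of genes were called lower in that setting, and by 0.70 (adjusted p = 0.0306) against control, where 9.76% were. The first call of Il34 was kept only without TBI+DEIX replicate 1 and the second only without control replicate 3 or TBI+DEIX replicate 3. Tnfrsf11b, which encodes the decoy receptor osteoprotegerin, was listed at 0 in 11 of 12 libraries. RANK ligand in marrow comes largely from stromal and bone-lineage cells, and the summed FPKM of 13 osteoblast and stroma markers was 40.5 to 48.4 in control, 38.9 to 64.9 in TBI, 37.5 to 49.5 in TBI+DEIX and 22.8 to 30.8 in DEIX. TBI and TBI+DEIX thus overlapped control in that sum, and DEIX lay below all other groups. Of the 9 of these markers that were tested, Col1a1, the collagen I gene, was called higher in TBI against control, by 0.77 (adjusted p = 0.0315), 1 of 9 beside 0.891% of all genes, with a median over the 9 of 0.41 against 0.05 for all genes. Between TBI+DEIX and DEIX, the contrast in which Ctsk was tested, 3 of the 9 were called higher in TBI+DEIX, beside 0.810% of all genes, with a median of 0.66 against 0.02: Cxcl12 by 1.62 (adjusted p = 0.0317), Spp1 by 1.12 (0.0317) and Sparc by 1.06 (0.0415). Of the 9 markers, 6 rose in that contrast, the direction of Ctsk and Tnfsf11. In DEIX against control, Cxcl12 and Sparc were called lower and 0 of the 9 higher, where 7.24% of all genes were called. The median of the 9 there was -0.53 against 0.02, while Ctsk changed by 0.02. Bglap was called lower in TBI+DEIX against TBI, beside 3.41% of all genes. The part of these markers in the Ctsk and Tnfsf11 results was not tested.

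**Figure D3:**
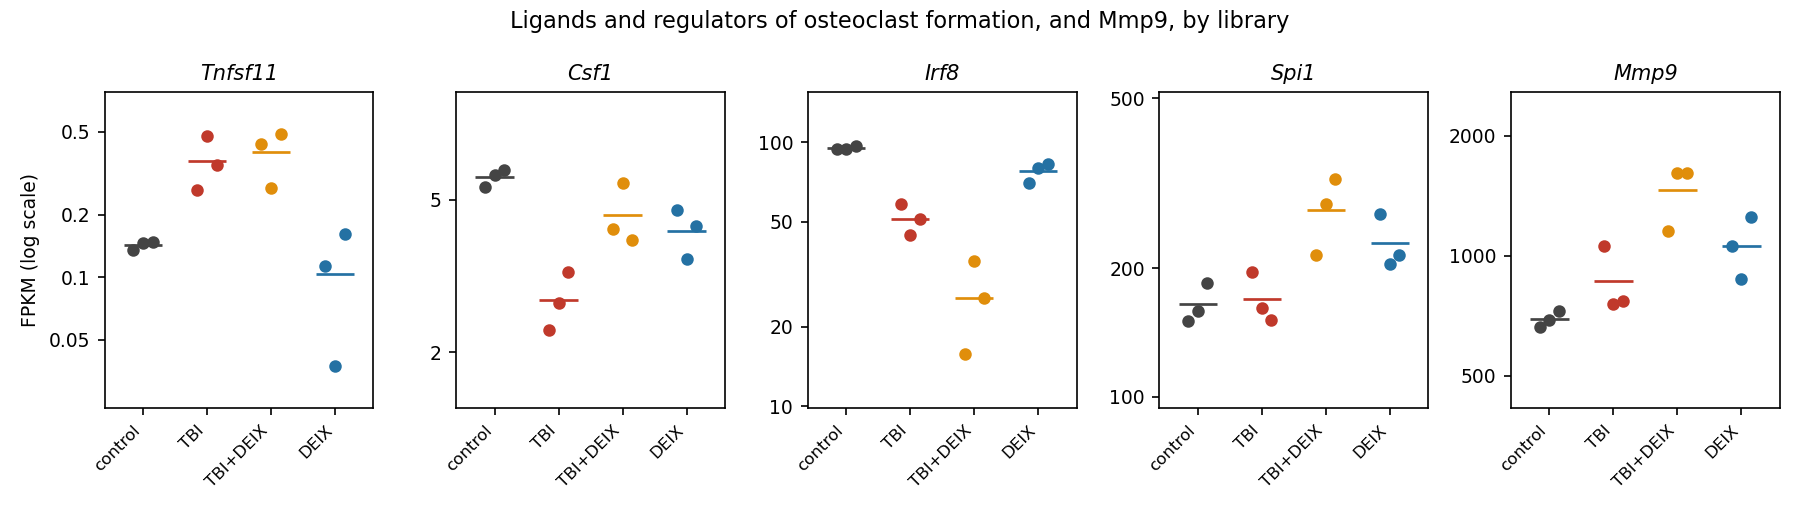
FPKM (log axes, scaled per gene) of Tnfsf11 and Csf1, ligands of osteoclast precursors, the transcription factors Irf8 and Spi1, and the protease Mmp9 in the 12 libraries, with bars at the mean of 3. Tnfsf11 is higher and Irf8 lower in every irradiated than in every unirradiated library, and Csf1 is lowest in TBI.

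Of 10 transcription factors that promote or restrain osteoclast formation, all were tested. In TBI+DEIX against TBI, 1 was called higher and 1 lower, where 4.69% of all genes were called higher and 3.41% lower, with a list median of 0.34 against 0.00 over all genes. In TBI+DEIX against control, 3 were called higher and 1 lower, beside 16.9% and 13.1% of all genes, and in TBI against control and DEIX against control limma called 0 of 10, with 3 at an unadjusted p under 0.05 in each, beside 18.1% and 24.7% of all genes. The gene called lower in both was Irf8, which encodes a repressor of NFATc1 and a factor of monocyte and dendritic cell development. It measured 94.3, 94.2 and 96.6 FPKM in control, 58.5, 44.4 and 51.0 in TBI, 15.8, 35.6 and 25.8 in TBI+DEIX, and 69.8, 79.8 and 82.7 in DEIX. Every irradiated library was below every unirradiated one, as for 2.16% of tested genes.

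Irf8 fell by 1.92 (SE 0.22, adjusted p = 0.000316) in TBI+DEIX against control, by 1.62 (SE 0.22, adjusted p = 0.00639) against DEIX and by 1.03 (SE 0.22, adjusted p = 0.0240) against TBI, while its change of -0.88 in TBI against control missed the threshold (adjusted p = 0.0530). Dendritic cells also use Irf8. Summed FPKM of 6 of their markers was 118 to 141 for control and 58.1 to 75.1 for DEIX. It was 42.6 to 52.0 for TBI and 18.2 to 45.7 for TBI+DEIX, in the same order of group means. Of the 5 tested, 1 was called lower in TBI against control, beside 3.10% of all genes. TBI+DEIX had 2 called lower against DEIX and 3 against control, beside 1.76% and 13.1%. In these contrasts 0 were called higher. Xcr1, a marker under the filter, went the other way, with higher means in both irradiated groups. Its mean FPKM was 0.285 for TBI and 0.638 for TBI+DEIX, against 0.0850 for control and 0.0369 for DEIX. Xcr1 was called in no contrast of the added setting. Of 11 monocyte markers, 4 were called lower and 0 higher in TBI+DEIX against DEIX, beside 1.76% of all genes called lower, with a median of -1.39, and 4 lower and 3 higher against control, beside 13.1% and 16.9% of all genes, with a median of -0.48 against 0.02. Klf4, a transcription factor of monocytes, was called lower in both, at -1.76 (adjusted p = 0.00587) and -1.16 (0.00456). The monocyte sums were 2374 to 2473 FPKM in control, 1592 to 2529 in TBI, 877, 2214 and 3051 in TBI+DEIX, and 2852 to 3285 in DEIX, and without TBI+DEIX replicate 1 the TBI+DEIX range was 2214 to 3051, on both sides of control. The part of dendritic cells and monocytes in the Irf8 result was not tested. Spi1, which encodes PU.1, rose by 0.68 (SE 0.17, adjusted p = 0.0386) in TBI+DEIX against TBI and by 0.71 (adjusted p = 0.0109) against control. Jdp2, an AP-1 repressor family member needed for osteoclast formation, rose by 0.85 (adjusted p = 0.00127) in TBI+DEIX against control.

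Of 16 genes that carry the RANK and ITAM signal, all tested, Relb, a subunit of the alternative NF-kB pathway, fell by 0.46 (SE 0.11, adjusted p = 0.0469) in TBI against control, the single call in that contrast, where 3.10% of all genes were called lower, and rose by 0.45 (SE 0.11, adjusted p = 0.0360) in TBI+DEIX against TBI. Syk, the kinase that reads ITAM adaptors, also rose by 0.45 (adjusted p = 0.0360) there, which made 2 of 16 higher, beside 4.69% of all genes. Plcg2 and Rela were called higher in TBI+DEIX against control, by 0.43 (adjusted p = 0.0165) and 0.31 (adjusted p = 0.0309), and Tec was called lower, at -0.55 (adjusted p = 0.0445), beside 16.9% of all genes called higher and 13.1% lower. The median over the list there was 0.04 against 0.02 for all genes, and on TPM the list median was -0.08 and that of all genes -0.10.

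Of the acid and chloride transport members, Tcirg1 and Clcn7 were called in no contrast, and Atp6v0d2 is described above. Tcirg1 encodes the a3 subunit of the V-ATPase, which directs the pump to the osteoclast's bone-facing membrane, on chromosome 19 from 3896050 to 3907133. It measured 58.3, 59.4 and 63.9 FPKM in control, 64.5, 64.0 and 59.6 in TBI, 63.9, 68.7 and 79.2 in TBI+DEIX, and 82.2, 63.1 and 72.5 in DEIX. Every group overlapped control, and the changes of Tcirg1 between groups ran from -0.04 in TBI+DEIX against DEIX to 0.25 in DEIX against control (adjusted p = 0.203).

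Clcn7 encodes ClC-7, the chloride-proton exchanger of lysosomes and of the resorption pit, on chromosome 17 from 25133391 to 25162104. It measured 11.0, 11.0 and 10.3 FPKM in control, 12.9, 11.5 and 12.5 in TBI, 15.2, 11.3 and 12.3 in TBI+DEIX, and 13.9, 13.7 and 12.8 in DEIX. All 9 treated libraries were above all 3 controls, by little, as for 9.76% of tested genes, and among themselves TBI, TBI+DEIX and DEIX were close. The change of Clcn7 was 0.29 in DEIX against control (95% confidence interval 0.06 to 0.53, adjusted p = 0.121) and 0.18 in TBI against control (adjusted p = 0.415). Its relatives Clcn3, Clcn4, Clcn5 and Clcn6 were tested and 0 of these 4 passed in the 6 contrasts fitted with limma, which called 0.200% to 30.0% of all genes, nor did any reach an unadjusted p under 0.05, as 7.50% to 41.6% of all genes did.

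Of 21 other V-ATPase genes, 17 were tested. By limma, 0 of 17 were called in TBI against control (1 at an unadjusted p under 0.05, beside 18.1% of all genes), where 0.891% of all genes were called higher, 1 in TBI+DEIX against TBI, 1 in DEIX against control, 4 in TBI+DEIX against control and 1 in TBI+DEIX against DEIX, all higher, beside 4.69%, 4.52%, 16.9% and 0.810% of all genes called higher in the last 4. The gene called in all 4 was Atp6v0a1, which encodes the a1 subunit, a counterpart of Tcirg1's a3. It measured 29.5, 26.6 and 30.1 FPKM in control, 40.4, 32.8 and 33.3 in TBI, 51.6, 49.9 and 51.0 in TBI+DEIX, and 38.9, 36.0 and 38.9 in DEIX. TBI+DEIX lay above every other group, as for 5.36% of tested genes. The change of Atp6v0a1 was 0.80 (SE 0.10, adjusted p = 0.000358) in TBI+DEIX against control and 0.51 (adjusted p = 0.0194) against TBI. Atp6v1a, the catalytic subunit, rose by 0.75 (adjusted p = 0.0112), Atp6v0a2 by 0.53 (adjusted p = 0.00368) and Atp6v1d by 0.39 (adjusted p = 0.0311) against control. On TPM, 1 rather than 4 of the 17 was called in that contrast. Of the 4 V-ATPase genes under the filter, Atp6v1c2, an isoform of the C subunit, held 0 to 0.0231 FPKM in control, 0.0507 to 0.0813 in TBI, 0.242, 0.503 and 0.633 in TBI+DEIX, and 0.0194 to 0.0393 in DEIX. All irradiated libraries were above all unirradiated ones, as for 1.62% of genes with a mean of 0.05 to 1 FPKM, and TBI+DEIX was above TBI. In the added setting, Atp6v1c2 rose by 2.05 (SE 0.23, adjusted p = 0.00526) in TBI+DEIX against DEIX and by 2.24 (adjusted p = 0.000475) against control, each called in 6 of 6 fits without a library. It rose by 1.70 (adjusted p = 0.0151) against TBI, where 2.38% of genes were called higher, a call lost without TBI replicate 3 (0.0622) or TBI+DEIX replicate 3 (0.0524), and its change in TBI against control was 0.54 (adjusted p = 0.286). Atp6v0a4 fell by 0.30 in TBI+DEIX against control (adjusted p = 0.0463, called in 2 of 6 such fits), from at most 0.0444 FPKM. Atp6v0d1, the common form of the d subunit, was measured at 84.3 to 148 FPKM, against 0.152 to 1.58 for Atp6v0d2.

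Acp5 encodes tartrate-resistant acid phosphatase (TRAP), the enzyme stained to show osteoclasts, on chromosome 9 from 22126727 to 22135711, and it did not follow Ctsk. It measured 28.0, 24.3 and 28.8 FPKM in control, 40.0, 18.7 and 35.4 in TBI, 13.7, 23.4 and 14.9 in TBI+DEIX, and 13.8, 31.3 and 14.7 in DEIX. The libraries within TBI and within DEIX spread more widely than the 4 group means did, and TBI+DEIX lay wholly below control, as for 21.1% of tested genes. The changes of Acp5 were 0.14 in TBI against control (95% confidence interval -0.59 to 0.87, adjusted p = 0.862), -0.79 in TBI+DEIX against TBI (adjusted p = 0.156) and -0.65 in TBI+DEIX against control (adjusted p = 0.166), and none passed.

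Within each group, the library highest in Acp5 was also the highest in the summed FPKM of the 7 erythroid markers, which was 3478 in control replicate 3, 4816 in TBI replicate 1, 982 in TBI+DEIX replicate 2 and 4559 in DEIX replicate 2. At the low end the order differed between groups: the library with the lowest sum was also the lowest in Acp5 in control, TBI and TBI+DEIX, but within DEIX replicate 3 had the lowest sum (901, with Acp5 at 14.7 FPKM) and replicate 1 the lowest Acp5 (13.8 FPKM, with a sum of 1051). TBI+DEIX replicate 2, at a sum of 982, held 23.4 FPKM of Acp5, more than either. None of the 7 erythroid markers was at 0 in any library, and the part of these cells in the Acp5 values was not tested. For Ctsk, the same look at 15 macrophage markers gave sums of 293 to 349 FPKM in control, 183 to 272 in TBI, 309 to 428 in TBI+DEIX and 209 to 231 in DEIX. TBI lay below control in that sum while Ctsk was higher, TBI+DEIX overlapped control, and all TBI+DEIX libraries lay above all DEIX libraries. Between TBI+DEIX and DEIX, where Ctsk was tested, 8 of the 15 macrophage markers were called higher in TBI+DEIX and 0 lower. Of all genes, 0.810% and 1.76% were, and the list median was 1.14 against 0.02, the direction of Ctsk. In DEIX against control, 8 of the 15 were called lower and 0 higher, where 7.24% of all genes were called. The list median there was -1.04 against 0.02, while Ctsk changed by 0.02. The interaction called 5 of the 15 higher and 0 lower, beside 0.200% of all genes, and did not call Ctsk. In TBI against control, 3 of the 15 were called lower and 0 higher, beside 3.10% and 0.891% of all genes, with a median of -0.48 against 0.05. Summed FPKM of 5 megakaryocyte markers was 94.8 to 152 in control and 48.1 to 88.1 in DEIX. It was lower in every irradiated library, at 14.7 to 32.6 in TBI and 20.7 to 25.7 in TBI+DEIX. For 7 B lineage markers the sums were 324 to 405 in control and 21.4 to 240 in TBI. They were 5.42 to 131 in TBI+DEIX and 55.8 to 86.1 in DEIX. The part of these cells, of macrophages and of stromal cells, whose sums are given above, in the Ctsk result was not tested.

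**Figure D4:**
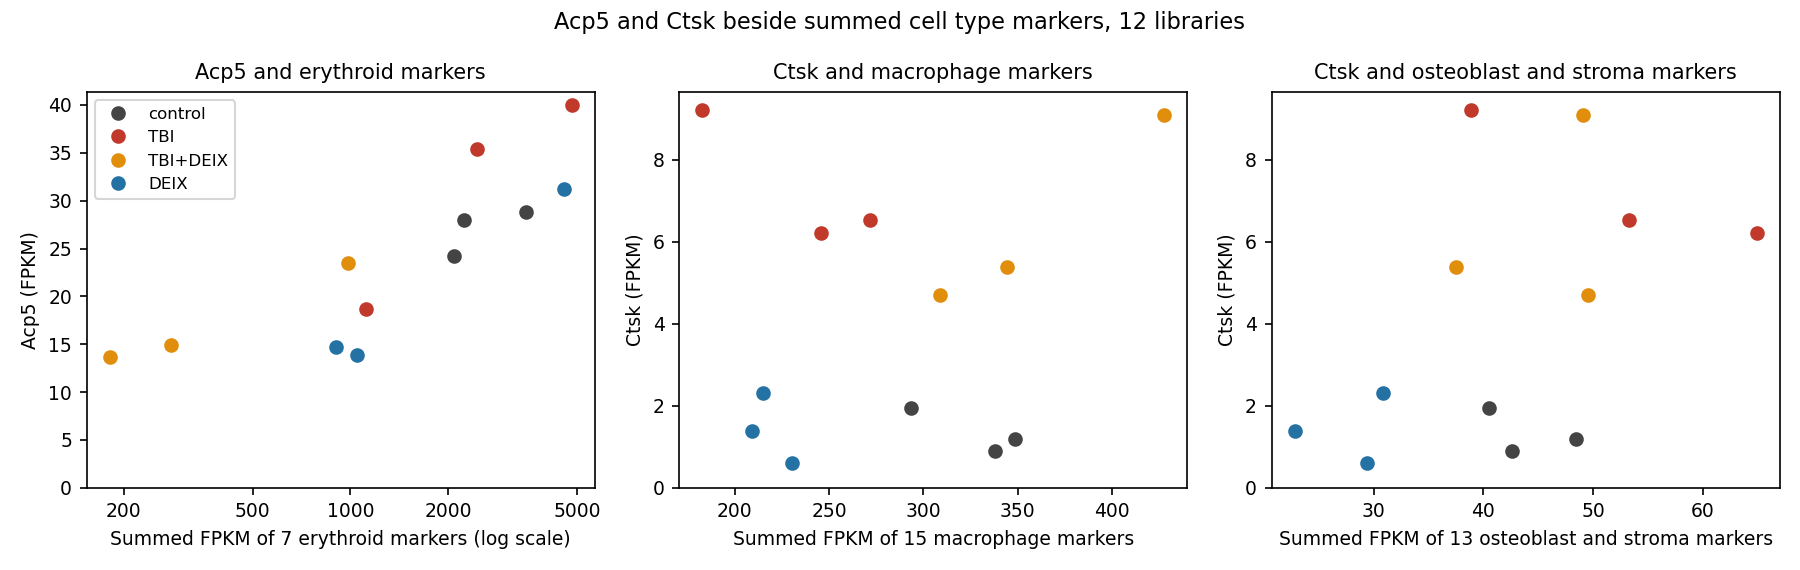
Acp5 against the summed FPKM of 7 erythroid markers (log axis), and Ctsk against the sums of 15 macrophage and 13 osteoblast and stroma markers, with each point a library. The 2 libraries with the lowest erythroid sums, 181 and 280, have Acp5 at 13.7 and 14.9 FPKM, and the osteoblast and stroma sums of the DEIX libraries, 22.8 to 30.8, lie below those of all irradiated libraries, 37.5 to 64.9.

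Other genes of the working osteoclast came from a list of 12, of which 8 were tested. By limma, 0 of 8 were called in TBI against control (1 at an unadjusted p under 0.05, as were 18.1% of all genes) and 0 in TBI+DEIX against TBI (5 unadjusted, beside 27.2%). In DEIX against control 1 was called higher (Slc4a2, at 0.35, adjusted p = 0.0423), beside 4.52% of all genes. Between TBI+DEIX and DEIX, where Ctsk was tested, limma called 0 of 8 and 0 had an unadjusted p under 0.05, beside 16.2% of all genes, with a median of -0.04 against 0.02. From control to TBI+DEIX, 4 were called higher and 1 lower, beside 16.9% and 13.1% of all genes, with a median of 0.33 against 0.02. The 4 were Mmp9, a gelatinase also made in bulk by neutrophils, at 1.06 (SE 0.21, adjusted p = 0.00423), Plekhm1, a lysosomal trafficking gene, at 0.52 (adjusted p = 0.0149), Slc4a2, the bicarbonate exchanger, at 0.50 (adjusted p = 0.00247), and Ostm1, the partner subunit of ClC-7, at 0.29 (adjusted p = 0.0462). The gene called lower was Car2, carbonic anhydrase II, which red cells also hold, at -1.41 (SE 0.46, adjusted p = 0.0388). On TPM, 1 was called higher and 1 lower. Of 11 neutrophil markers, Cd177, Cxcr2 and Ltf were called higher and Elane lower in TBI+DEIX against control, and their summed FPKM was 23795 to 33422 in control, 26681 to 34145 in TBI, 23238, 52904 and 51414 in TBI+DEIX, and 28290 to 40210 in DEIX. Without TBI+DEIX replicate 1, the lowest of these, TBI+DEIX lay above all other groups in that sum. None of the 11 was at 0 in any library, and the part of neutrophils in the Mmp9 result was not tested.

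The other 4 genes of that list were under the filter. Src and Siglec15 were called in no contrast of the added setting. Cd109, a surface protein of osteoclasts and other cells, held 0.138 to 0.149 FPKM in control, 0.367 to 0.492 in TBI, 0.102 to 0.235 in TBI+DEIX and 0.188 to 0.290 in DEIX, so that TBI was above all other groups, as for 1.29% of genes with a mean of 0.05 to 1 FPKM. On log2(FPKM + 0.1), Cd109 rose by 1.08 (adjusted p = 0.0246) in TBI against control, called in 0 of 6 fits without a library, and fell by 0.90 (adjusted p = 0.0450) in TBI+DEIX against TBI, called in 2 of 6, those without TBI+DEIX replicate 1 or 2. Calcr, the calcitonin receptor, a defining marker of mature osteoclasts, was listed at 0 in 7 of 12 libraries and reached 0.0177 FPKM at most. Of 11 other lysosomal cathepsin genes, Ctso fell by 0.63 (adjusted p = 0.0442) in TBI against control, 1 of 11 beside 3.10% of all genes called lower. Ctsd was higher by 0.65 (adjusted p = 0.0487) and Ctso lower, at -0.58 (adjusted p = 0.0150), in TBI+DEIX against control, 1 of 11 in each direction beside 16.9% and 13.1% of all genes. In TBI+DEIX against DEIX, where Ctsk rose, 0 of the 11 were called by limma, beside 0.810% of all genes called higher and 1.76% lower. At an unadjusted p under 0.05 there were 3, beside 16.2%. Of the 11, 2 had a change above 0, and the median was -0.24 against 0.02 for all genes, opposite to Ctsk.

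Counted over the list, 2 of the 6 members tested were called in TBI against control (Ctsk and Atp6v0d2, where 3.99% of all genes were called), 1 in TBI+DEIX against TBI (8.10%), 0 in DEIX against control (7.24%), 3 in TBI+DEIX against control (30.0%), 1 in TBI+DEIX against DEIX (2.57%) and 0 in the interaction (0.200%). The first count rests on Ctsk, which was known there, and on Atp6v0d2, which passed the filter through irradiated libraries only. The 3 in TBI+DEIX against control were the same 2 genes, Ctsk with the control libraries it was selected on, and Nfatc1, so neither count supports anything about the list. At an unadjusted p under 0.05, 2 of 6 members were counted in DEIX against control, where 24.7% of all genes were, and 0 in the interaction by limma, where 7.50% were. As a description only, since the 6 include Ctsk and Atp6v0d2, their median change was 0.16 in TBI against control, beside 0.05 over all tested genes, and 0.07 beside 0.02 in TBI+DEIX against DEIX.

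The pattern of Ctsk over the 12 libraries was most like that of Atp6v0d2 among the other members, with Pearson's r of 0.936 on log2(FPKM + 1), followed by Oscar at 0.858, Dcstamp at 0.800 and Ocstamp at 0.735. It was 0.234 for Acp5, 0.101 for Nfatc1 and -0.06 for Tcirg1. Of 8339 genes with a mean of at least 5 FPKM, the most similar was Josd1 (r = 0.925), a deubiquitinase gene, followed by Cdkn1a (0.902), which encodes the p53-induced cell cycle inhibitor p21, Vps37b (0.897), Dlst (0.883), Myo1d (0.881), Med22 (0.874), Gpr157 (0.873) and Asns (0.867), the asparagine synthetase gene. These r values describe 12 libraries in 4 groups and largely follow the group means. Within groups, r with Ctsk was 0.605 for Josd1, 0.550 for Cdkn1a and -0.40 for Gpr157. Cdkn1a averaged 12.2 FPKM in TBI and 12.1 in TBI+DEIX, against 8.16 in control and 8.49 in DEIX.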

How the data were processed

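Messenger RNA of whole bone marrow cells was sequenced by the submitters from libraries made with a directional MGI kit, per the labels. The submitters' processing notes name STAR 2.6, Cufflinks 2.2.1 and mm10. The deposited values are FPKM per gene and library, computed by the authors, and the annotation they used is not given in the sources used here. All 21853 identifiers matched GENCODE vM21 genes on GRCm38. The members and lists were chosen with earlier results of these data known. Genes of at least 1 FPKM in at least 3 of 12 libraries (10994) were fitted as log2(FPKM + 1) with limma 3.58.1 in R 4.3.3, in 1 model of 4 group means with a mean-variance trend, checked on simulated data. Calls were made at an adjusted p (Benjamini-Hochberg) under 0.05. Members and list genes under the filter were fitted without it on log2(FPKM + 0.1), a setting chosen after seeing the data, as were the list genes named from it. All members are described; from a list, at most 4 called genes of largest change were named, otherwise its highest, and 1 gene that this rule names is not reported here. The 8 genes most like Ctsk were taken by Pearson's r. Fragment numbers are approximate, from the longest transcript. Alternatives were other pseudocounts, filters and scalings, array weights, a replicate block, the compared groups alone and leaving out each library. Same-numbered libraries deviated together, by a correlation over 0.1, in 3 of 18 pairs, so numbers were not taken to pair them.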

Additional observations from a re-analysis of the deposited data

How the results depend on the processing

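The rise of Ctsk in TBI+DEIX against control was called in all 17 alternatives fitted to it. That contrast reuses the control libraries on which Ctsk was selected. In TBI+DEIX against DEIX, which shares no library with the selection, the rise was called in 14 of 17. Of the 2 members called in TBI against control, 1 was called with a pseudocount of 0.1 or of 5 and 1 in each fit without a library (1 to 1), 0 with a mean of at least 5 FPKM, which removes both, and 4 with array weights. In TBI+DEIX against TBI, 0 rather than 1 was called on TPM, on TPM without S100a8, S100a9 and Ngp, and in the compared groups alone (0 to 1 without a library). In DEIX against control, 3 were called with array weights and 1 in the compared groups alone. In TBI+DEIX against control, 1 rather than 3 was called with a mean of at least 5 FPKM and on TPM, and 4 without a filter, with Oscar and Ocstamp added and Atp6v0d2 lost. In TBI against control, 3 were called without a filter, with Oscar added. In TBI+DEIX against DEIX, 0 rather than 1 was called with a mean of at least 5 FPKM and in the compared groups alone, 3 without a filter, 2 with no filter and a pseudocount of 0.1, and 2 with array weights (0 to 2 without a library). The members with all irradiated above all unirradiated libraries numbered 2 to 4 without a library, with 4 without TBI+DEIX replicate 1. These counts include Ctsk, selected on TBI above control, and are a description only. The change of Ctsk in TBI+DEIX against TBI turned to 0.20 with array weights. That in DEIX against control, 0.02, turned to -0.016 with a pseudocount of 0.1, with or without the filter, to -0.10 on TPM and to -0.017 on TPM without those 3 genes, and ran from -0.23 to 0.29 without a library. The interaction of Ctsk turned to 0.061 with array weights and to 0.035 without DEIX replicate 2, with -0.49 to 0.035 over the fits without a library. None of these reversed values was called, and the cause of these differences was not tested.

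Over all tested genes, the number called ran from 134 to 7017 in TBI against control, 0 to 5532 in TBI+DEIX against TBI, 313 to 5249 in DEIX against control, 1941 to 6866 in TBI+DEIX against control, 0 to 1222 in TBI+DEIX against DEIX and 7 to 1148 in the interaction over the alternatives that keep all libraries. Without a library they were 153 to 259 rather than 439, 5 (without TBI replicate 3) to 2836 (without TBI+DEIX replicate 1) rather than 891, 146 to 938 rather than 796, 2004 to 4232 rather than 3299, 50 (without DEIX replicate 3) to 927 (without TBI+DEIX replicate 1) rather than 283, and 4 to 331 rather than 22, so the shares over all genes set beside each count move with single libraries. With a replicate block, the member counts were the same, 2, 1, 0, 3, 1 and 0, and the number of all genes called in TBI+DEIX against TBI was 474 rather than 891 and in TBI+DEIX against DEIX 180 rather than 283. The share of called genes that were higher also moved. Over the alternatives that keep all libraries, it ran from 18.2% to 77.1% in DEIX against control. It ran from 30.4% to 67.3% in TBI+DEIX against TBI and from 8.77% to 56.6% in TBI against control. Without a library, it ran from 45.2% to 64.3%, 39.1% to 100% and 7.65% to 20.6%, in the same order. Depth limits Oscar, Ocstamp and Dcstamp most.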
